A study of Mus musculus with 2 samples.

Results

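Genes of 7 solute carrier families that move amino acids and transmitters across membranes were compared between AgRP neurons of FoxO1 KO mice and of mice with a heterozygous FoxO1 knockout. The members were all genes named Slc1a, Slc3a, Slc6a, Slc7a, Slc36a, Slc38a or Slc43a with a number, among probe sets that carry 1 gene symbol in the platform annotation. 1 gene of the Slc6a family was left out in advance. This gave 61 genes of 22296, measured by 1246 probe sets, and 58 of them could be evaluated. The cells were hypothalamic neurons that express agouti-related peptide, sorted by FACS, and there was 1 exon-level array per genotype. The heterozygous array stands as the control and its cells carry a FoxO1 knockout allele too. Mice of both groups had a mixed genetic background, fed freely, and were littermates matched for age and sex. The sources used here do not give the ages, the number of mice per array, any pooling, or the Cre and reporter alleles. With 1 array per genotype nothing can be tested, and all differences are descriptions of 1 pair of arrays.

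Amino acid transporters are membrane proteins that often couple uptake to sodium or proton gradients or exchange one amino acid for another. In brain, carriers of the Slc1a and Slc6a families clear glutamate, GABA, glycine and monoamines from the synapse, many of them on astrocytes. Slc38a carriers pass glutamine from astrocytes to neurons for transmitter synthesis, and Slc7a light chains work in pairs with an Slc3a heavy chain to supply large neutral or basic amino acids and cystine. AgRP neurons release GABA beside their peptides, so their own carriers of GABA and of its precursors belong to this set.

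Values are on the log2 scale, on which a difference of 1 is 2-fold. Probe sets entered if they averaged 5.86 or more across the pair of arrays, which is the median of all probe sets and is called the floor, and a gene needed at least 3 of them. A probe set under the floor on 1 array thus enters if it is bright enough on the other, which favours large differences among dim probe sets. A gene's difference is the median over its probe sets of KO minus heterozygous, and its level on an array is the median of those probe sets there. These are separate medians, and a difference can depart from the gap between levels: Slc1a4 stood at 8.28 in KO cells and 8.43 in heterozygous cells with a difference of 0.24. The SD given with a difference is over the probe sets of a gene and is not an error between mice. Levels of different genes were not ranked, because probe sets differ in brightness for reasons of sequence.

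The targeted gene Foxo1 had a difference of -0.48 (SD 0.53 over 8 probe sets), with all 8 probe sets lower in KO cells. The position of these probe sets against the deleted exons is unknown, and those outside them check nothing. Of 12 AgRP neuron markers, 10 were above 0 with a median of 0.26, and their levels spanned 7.36 to 12.4 in KO and 7.68 to 12.3 in heterozygous cells. All 11 evaluated oligodendrocyte markers were below 0 with a median of -1.11, and all 12 precursor markers with a median of -0.59. In bulk samples such as these, fewer cells of a type and less RNA per cell cannot be told apart.

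Few of the transporter genes differed by much. None of the 58 was higher in KO cells by 2-fold or more with at least 75% of its probe sets in that direction, where 1.13% of all 16639 evaluated genes were. Slc38a7 alone was at least 2-fold lower by that rule, or 1.72% of the members, where 1.12% of all genes were. At 1.5-fold, 3 members were lower, Slc38a7, Slc1a6 and Slc7a11 (5.17% against 4.90% of all genes), and 0 were higher, against 3.28%. These shares are near the background and are no result about the set.

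The median difference of the 58 genes was -0.15, with quartiles of -0.34 and 0.07, and the median of all evaluated genes was -0.11, with quartiles of -0.29 and 0.09. Below 0 lay 38 members, or 65.5% against 65.2% of all genes, and above 0 lay 20, or 34.5% against 34.8%. Centring the arrays on the median gene adds 0.11 to every difference, and then 32 members lie below 0 and 26 above. The members ran from -1.22 for Slc38a7 to 0.50 for Slc38a11, and 50 of 58 lay within 0.5 of 0 (86.2%, against 84.7% of all genes). In 56 of the 58 the SD over probe sets was larger than the difference itself, the others being Slc38a7 and Slc1a6. The share of all evaluated genes with such an SD was not counted, so that count is no result about the set. At least 75% of the probe sets were lower for 14 members whatever the size (24.1%, against 23.3% of all genes) and higher for 2, Slc1a5 and Slc38a6 (3.45%, against 9.56%).

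**Figure D1:**
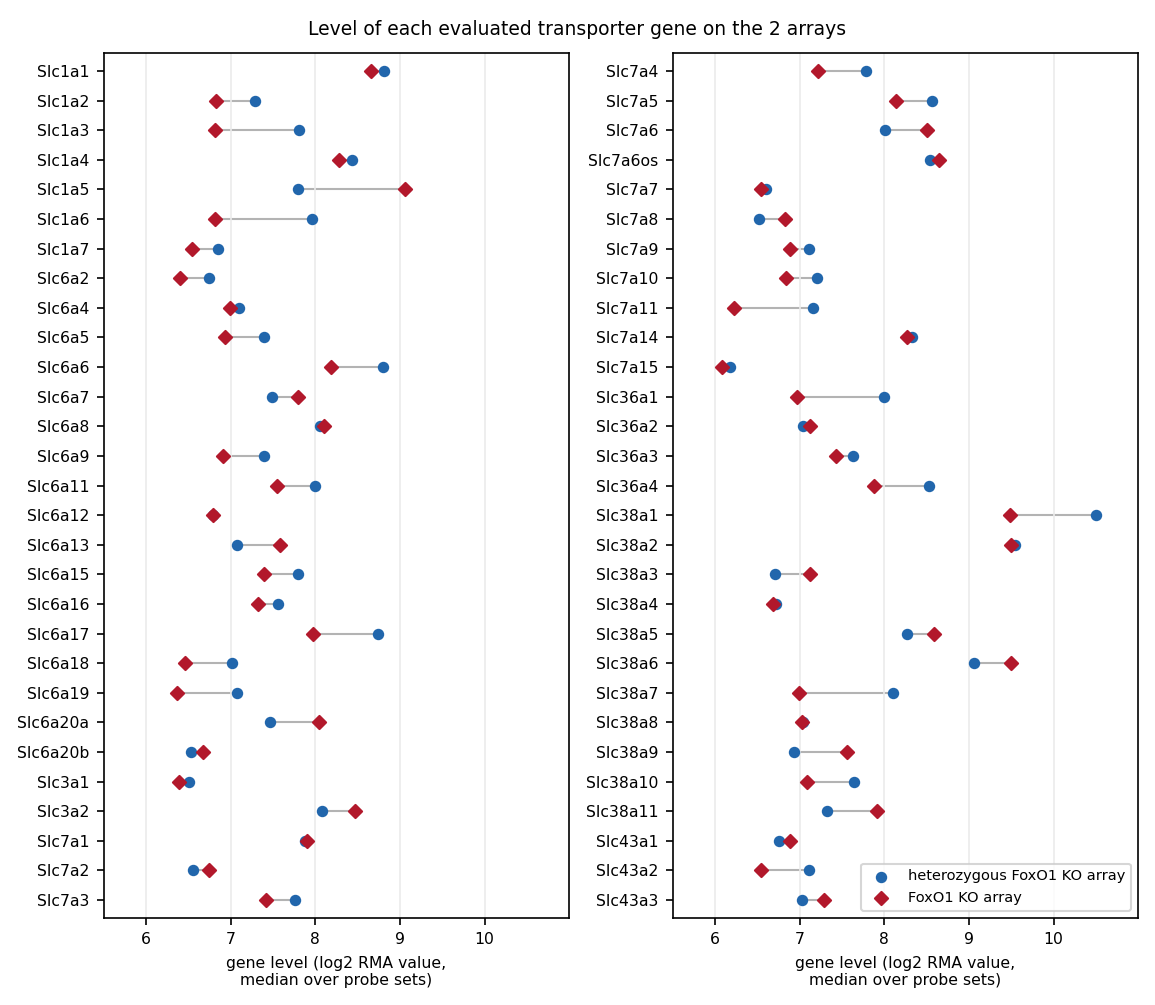
Level of each of the 58 evaluated transporter genes (x axis, log2 RMA value, median over the gene's probe sets) on the FoxO1 KO array (red diamonds) and on the heterozygous FoxO1 KO array (blue circles), 1 array each. The longest gaps toward a lower KO level include Slc38a7 (6.99 against 8.10) and Slc1a6 (6.81 against 7.96), while Slc1a5 stood at 9.06 against 7.79 over only 4 probe sets.

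The glutamate and neutral amino acid carriers of the Slc1a family had a median of -0.15 over 7 genes, with 5 below 0 and none past the 2-fold rule. Slc1a6, the glutamate carrier EAAT4 best known from Purkinje cells, stood at 6.81 in KO cells and 7.96 in heterozygous cells. Its difference was -0.80 (SD 0.72), with 9 of 10 probe sets lower, and 2.47% of all evaluated genes were at or below it. The probe sets of Slc1a6 ran from -1.92 to 0.55, and its brightest one was 9.92 in KO cells and 11.2 in heterozygous cells. The Slc1a6 difference stayed between -0.98 and -0.69 over the 9 alternative ways of processing, not all of which can change it.

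Slc1a3, the astrocyte glutamate carrier GLAST, stood at 6.81 against 7.80, a difference of -0.73 (SD 0.90). Of its 15 probe sets 11 were lower, among them 8.47 on the heterozygous array against 6.13 on the KO array, and 4 were higher by up to 0.59. Slc1a2, the main astrocyte glutamate carrier GLT-1, differed by -0.20 (6.83 against 7.29, SD 0.56), with 6 of 11 probe sets lower. The 12 astrocyte markers of a list that holds neither gene had a median of -0.16 with 8 below 0, from Agt at -0.62 to Gfap at 0.66. Their levels spanned 6.60 to 10.3 in KO and 6.30 to 10.6 in heterozygous cells, as medians of probe sets at or above the floor, and their part in the Slc1a3 value was not tested.

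The remaining members of the family, Slc1a1, Slc1a4, Slc1a5 and Slc1a7, lay between -0.15 and 0.31. Slc1a1, the neuronal glutamate and cysteine carrier EAAT3, stood at 8.65 in KO cells and 8.81 in heterozygous cells (difference -0.15, SD 1.06 over 17 probe sets, 9 of them lower). Slc1a4, which carries alanine, serine and cysteine, differed by 0.24, with 7 of 11 probe sets higher. Slc1a5, the glutamine carrier ASCT2, differed by 0.31 (SD 1.10), with 3 of 4 probe sets higher and 1 of them by 2.28 (9.17 against 6.89). Slc1a7, the retinal glutamate carrier EAAT5, differed by -0.01.

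The carriers of GABA, taurine, betaine and creatine had a median of -0.17 over 5 genes, of which 3 were below 0. Slc6a6, the taurine carrier, stood at 8.18 in KO cells and 8.80 in heterozygous cells and had the lowest value of the group, at -0.76 (SD 1.01). Of its 19 probe sets 14 were lower, down to -2.33, and 5 were higher, up to 1.21, so the probe sets of Slc6a6 split. The difference was -0.76 also with no floor.

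Slc6a11, the astrocyte GABA carrier GAT3, had a difference of -0.17 (SD 1.17), and 11 of its 15 probe sets were lower. That median hides a wide range: the lowest Slc6a11 probe set was at 6.61 in KO cells and 9.75 in heterozygous cells, a difference of -3.14, while the highest differed by 0.26. By the mean over probe sets Slc6a11 stood at -0.82 in place of -0.17. Slc6a13, the GABA carrier GAT2 of meninges and vessels, differed by 0.17 (7.58 against 7.07), and Slc6a12, the betaine and GABA carrier BGT1, by 0.02 (6.79 on both). Each of these paralogs had 1 probe set far above the rest, at 2.45 for Slc6a13 (9.36 against 6.91) and 2.83 for Slc6a12 (9.02 against 6.19). Slc6a8, the creatine carrier, stood at 8.10 against 8.06, a difference of -0.17 with 14 of 22 probe sets lower.

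The glycine, proline and neutral amino acid carriers of the Slc6a family had a median of -0.28 over 10 genes, with 7 below 0. Slc6a15, the neuronal carrier of branched-chain amino acids and proline, was lowest at -0.45 (7.39 against 7.80, SD 1.23). Of its 16 probe sets 14 were lower, but they ran from -3.05 to 2.59. Slc6a19, a neutral amino acid carrier of kidney and gut, stood at -0.40 (6.36 against 7.08) and its relative Slc6a18 at -0.39 (6.46 against 7.02). Slc6a16, an orphan of the family, differed by -0.40 with 8 of 10 probe sets lower, and by -0.06 with no floor.

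Of the synaptic glycine carriers, Slc6a9 (GlyT1, mostly glial) differed by -0.34 (6.90 against 7.40), with 13 of 17 probe sets lower. Slc6a5 (GlyT2, of glycinergic neurons) differed by -0.22 (6.93 against 7.40), with 9 of 11 lower. Slc6a17, a carrier of synaptic vesicles, stood at 7.97 in KO cells and 8.74 in heterozygous cells, a difference of -0.13 with 16 of 22 probe sets lower, down to -2.24. Slc6a7, the brain proline carrier, differed by 0.07 (7.80 against 7.48) with 6 of 12 probe sets each way.

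Slc6a20a, a proline and imino acid carrier, was highest in the group at 0.46 (8.04 against 7.46, SD 0.55), although only 4 of 7 probe sets were higher. Without the floor Slc6a20a stood at -0.13 over 13 probe sets, so its direction depends on the dim probe sets. Its copy Slc6a20b differed by 0.06 (6.68 against 6.53) while its probe sets ran from -2.41 to 2.97. Close copies can share probe targets, so the values of these 2 genes are uncertain.

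Both monoamine carriers among the members lay a little below 0. Slc6a2, the noradrenaline carrier, stood at 6.40 against 6.74, a difference of -0.34 (SD 0.41), with 9 of 12 probe sets lower. Slc6a4, the serotonin carrier, stood at 6.99 against 7.09, a difference of -0.15 (SD 0.39), with 7 of 11 lower. No probe set of Slc6a4 differed by 2-fold.

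Among the paired carriers, the heavy chain Slc3a2 (4F2hc), which brings Slc7a light chains to the surface, differed by 0.36 (8.47 against 8.07, SD 1.16). Its 11 probe sets split into 6 higher, up to 2.28, and 5 lower, down to -1.76. Slc3a1, the heavy chain of kidney and gut, differed by -0.09 (6.39 against 6.50). The 8 evaluated light chains had a median of -0.06, with 5 below 0 and 3 above, and the median turned to 0.05 on centring.

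Slc7a5 (LAT1), the carrier of leucine and other large neutral amino acids, had most of its probe sets on 1 side of 0. It stood at 8.14 in KO cells and 8.57 in heterozygous cells, a difference of -0.51 (SD 0.56), and 15 of 17 probe sets were lower. The lowest of them was at -2.09, and the 2 exceptions were higher by 0.14 at most. All 17 Slc7a5 probe sets passed the floor, which therefore does not bear on that value, and 8.51% of all evaluated genes were at or below it. Over the 9 alternatives, not all of which can change a value, Slc7a5 ran from -0.59 to -0.40. Its partner Slc3a2 stood on the other side of 0.

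Slc7a11 (xCT), the cystine and glutamate exchanger that feeds glutathione synthesis, stood at 6.22 in KO cells and 7.16 in heterozygous cells. Its difference was -0.76 (SD 1.04), and all 8 probe sets above the floor were lower, from -2.94 (5.47 against 8.41) to -0.13. Among the 14 dimmer Slc7a11 probe sets 5 were higher, and over all 22 the difference was -0.21. By the mean over probe sets it was -1.11 and passed the 2-fold rule. Slc7a10 (Asc-1), a carrier of small neutral amino acids and D-serine, differed by -0.31 (6.84 against 7.21) with 9 of 12 probe sets lower.

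The other light chains were close to 0 or above it. Slc7a6 (y+LAT2) differed by 0.20 (8.50 against 8.01, SD 1.11) with 13 of 20 probe sets higher, and Slc7a8 (LAT2) by 0.17 (6.83 against 6.52) with 7 of 12 higher. Slc7a7 (y+LAT1) stood at 0.07, Slc7a9, the kidney cystine carrier, at -0.12, and Slc7a15 beside 0. Slc7a12 and Slc7a13 were not evaluated, with 0 and 2 probe sets at the floor, nor was Slc6a14 with 1. Slc7a6os, which the name rule takes in, lies beside Slc7a6 but does not code for a transporter, and it differed by -0.11; without it the median of the members was -0.15.

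Because FoxO1 is the factor removed and ATF4 drives several of these genes when amino acids run short, RefSeq promoters (GRCm38.p6, from 250 bases before to 50 after a start) were searched for their motifs. Promoters were matched for 44 of 61 members, with 65 starts. GTAAACA, the letters of a FoxO site, was looked for on both strands and was present in 2 of the 65 (3.08%), those of Slc7a11 and Slc36a3, and in 3.65% of all 32851 promoters. TGATGNAA, the core of the composite element that ATF4 binds, was present on either strand in 4 of the 65 (6.15%), from Slc7a11, Slc1a4 and Slc7a7, and in 3.97% of all. A match is a string of letters and not a site shown to be bound. Shown are the promoter that holds both motifs, the other FoxO match, an ATF4 match next to a start, and the promoter of the 1 gene past the 2-fold rule, with matches in capitals.
Slc7a11, chr3:50443564-50443863, minus strand: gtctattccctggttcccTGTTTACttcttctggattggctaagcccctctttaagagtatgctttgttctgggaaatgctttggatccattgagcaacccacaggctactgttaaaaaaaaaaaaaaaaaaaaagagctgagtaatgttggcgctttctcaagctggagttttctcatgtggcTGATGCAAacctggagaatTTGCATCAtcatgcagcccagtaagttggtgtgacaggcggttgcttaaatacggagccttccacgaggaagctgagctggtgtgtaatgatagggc
Slc36a3, chr11:55151659-55151958, minus strand: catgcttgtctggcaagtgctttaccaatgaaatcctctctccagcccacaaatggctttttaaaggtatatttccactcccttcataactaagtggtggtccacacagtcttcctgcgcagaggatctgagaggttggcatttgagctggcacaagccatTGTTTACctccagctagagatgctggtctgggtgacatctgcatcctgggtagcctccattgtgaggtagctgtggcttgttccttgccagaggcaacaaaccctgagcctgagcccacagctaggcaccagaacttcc
Slc1a4, chr11:20332664-20332963, minus strand: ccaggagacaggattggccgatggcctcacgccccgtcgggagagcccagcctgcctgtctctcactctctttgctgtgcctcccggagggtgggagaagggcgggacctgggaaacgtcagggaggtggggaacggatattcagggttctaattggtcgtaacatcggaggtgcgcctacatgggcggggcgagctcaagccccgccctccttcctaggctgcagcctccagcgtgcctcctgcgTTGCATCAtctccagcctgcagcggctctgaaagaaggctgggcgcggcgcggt
Slc38a7, chr8:95853442-95853741, minus strand: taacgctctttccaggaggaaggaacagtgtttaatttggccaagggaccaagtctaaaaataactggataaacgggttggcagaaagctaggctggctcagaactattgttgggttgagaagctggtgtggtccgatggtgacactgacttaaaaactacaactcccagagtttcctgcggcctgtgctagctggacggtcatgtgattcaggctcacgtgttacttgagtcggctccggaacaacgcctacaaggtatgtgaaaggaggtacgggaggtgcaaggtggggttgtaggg
In Slc7a11 the FoxO letters begin 232 bases before the start and the ATF4 letters 66 and 47 bases before it, in opposite orientations and without overlap between motifs. In Slc36a3 the FoxO letters begin 89 bases before the start, and in Slc1a4 the ATF4 letters begin 4 bases before it. Slc38a7 has neither string in this window. The differences of these genes were -0.76 for Slc7a11, 0.08 for Slc36a3, 0.24 for Slc1a4 and -1.22 for Slc38a7, and those of Slc36a3 and Slc1a4 change sign with the processing.

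The cationic amino acid carriers of the Slc7a family, which bring in arginine and lysine, had a median of -0.20 over 5 genes, with 4 below 0. Slc7a3 (CAT3), the neuronal one, was lowest at -0.51 (7.42 against 7.76, SD 0.96) with 10 of 14 probe sets lower, down to -2.58 and up to 1.08. Slc7a14, a relative of the family, differed by -0.27 (8.27 against 8.32, SD 1.05) and Slc7a1 (CAT1) by -0.20 (7.90 against 7.87). Slc7a4 differed by -0.18 (7.21 against 7.78), and Slc7a2 (CAT2) by 0.08 (6.74 against 6.55). None of the 5 had a difference larger than the SD over its probe sets.

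The proton-coupled carriers of the Slc36a family, among them exporters of lysosomal amino acids, had a median of -0.14 over 4 genes. Slc36a1 (PAT1), of lysosomes, was lowest at -0.34 (6.96 against 7.99, SD 1.26), with 13 of 17 probe sets lower. Its lowest probe sets were at -2.74 (5.84 against 8.58) and -2.69 (6.45 against 9.14), and its highest was at 1.70. Slc36a4 differed by -0.23 (7.88 against 8.53, SD 1.11) with 10 of 16 lower. Slc36a2 and Slc36a3, at -0.06 and 0.08, had no probe set that differed by 2-fold.

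The sodium-coupled neutral carriers of the Slc38a family had a median of 0.01 over 11 genes, with 5 below 0 and 6 above, and held both ends of the whole range. Slc38a7 (SNAT7), which releases glutamine and asparagine from lysosomes, stood at 6.99 in KO cells and 8.10 in heterozygous cells, a difference of -1.22 (SD 0.99) or 2.32-fold. Of the 10 Slc38a7 probe sets 8 were lower and 6 of them by over 2-fold, the lowest at 5.92 against 8.33 and at 6.46 against 8.41. The brightest Slc38a7 probe set hardly differed (10.3 against 10.5), and 2 were higher, by 0.30 and 0.74. Among all evaluated genes 0.631% were at or below the Slc38a7 difference. The call depends on the floor and on the use of the median. With all 13 probe sets Slc38a7 stood at -0.29, and with the mean in place of the median at -0.88, and passed the rule in neither. With the floor at the 75th percentile Slc38a7 stood at -1.29 over 5 probe sets and passed.

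**Figure D2:**
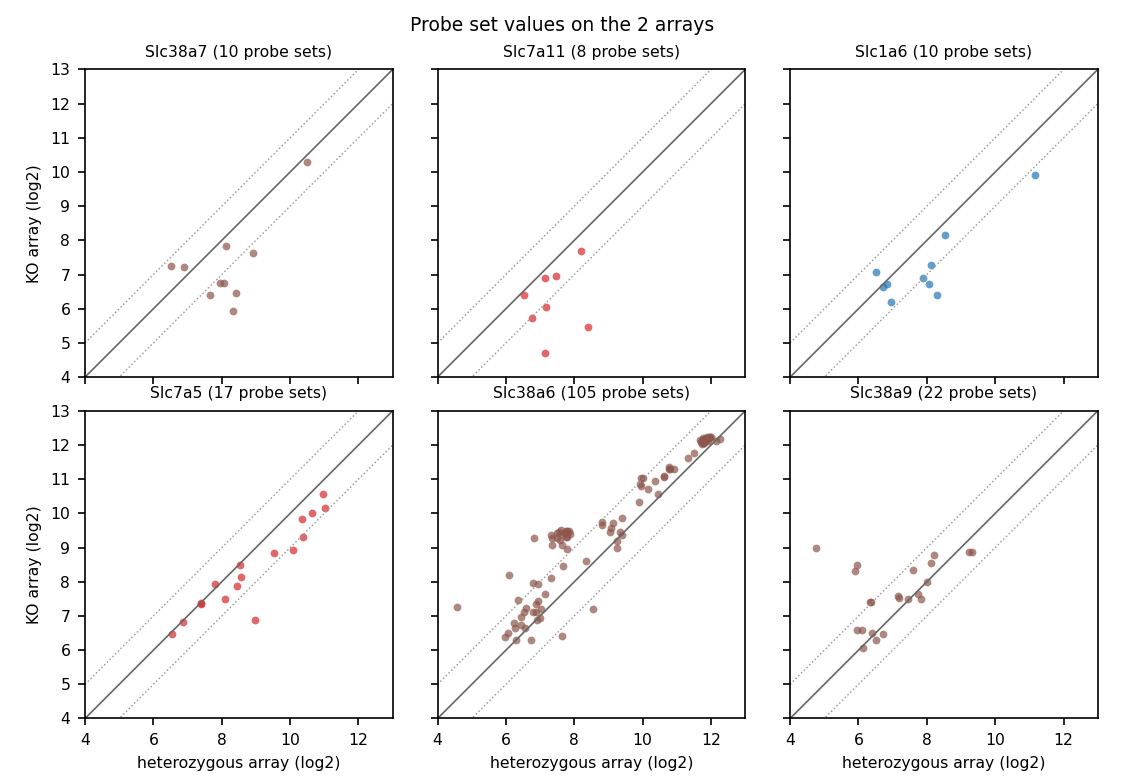
Values of single probe sets on the heterozygous array (x axis) and the KO array (y axis), both log2, for 6 transporter genes, with equality as a solid line and 2-fold differences as dotted lines. All 8 Slc7a11 points and 15 of 17 Slc7a5 points lie under the solid line, while of the 105 Slc38a6 points 30 lie close together near 11.8 and 12.1 and 19 near 7.63 and 9.38, and the other 56 are spread out.

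Slc38a1 and Slc38a2, the glutamine carriers SNAT1 and SNAT2 of neurons, went different ways by small amounts. Slc38a1 stood at 9.49 against 10.5 with a difference of -0.31 (SD 0.84), and 20 of 25 probe sets were lower, down to -2.50. Slc38a2 stood at 9.50 against 9.54 with a difference of 0.14 (SD 0.86), and 15 of 24 were higher, up to 2.96 (9.49 against 6.53). All 24 Slc38a2 probe sets passed the floor. Slc38a3 (SNAT3), which releases glutamine from astrocytes, differed by -0.18 (7.12 against 6.71) and Slc38a5 (SNAT5) by 0.11 (8.58 against 8.27), with 9 of 16 probe sets lower and 5 of 9 higher.

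Slc38a9, the lysosomal arginine sensor that acts on mTORC1, differed by 0.38 (7.56 against 6.93, SD 1.13), with 15 of 22 probe sets higher. It held the largest single probe set difference of all members, at 4.24 (8.98 against 4.74), with further ones at 2.53 and 2.42, while its lowest was at -0.45. Raising the floor to the 75th percentile put Slc38a9 at 0.01. Slc38a11 differed by 0.50 (7.91 against 7.33, SD 1.22), the highest of all members, on 6 probe sets of which 4 were higher. Slc38a10 differed by -0.42 (7.09 against 7.64, SD 1.12) with 16 of 21 lower, the lowest at -3.69 (6.06 against 9.75). Slc38a8 and Slc38a4 stood at -0.19 and 0.01.

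Slc38a6, an orphan of the family, differed by 0.44 (9.50 against 9.06, SD 0.70), and 94 of its 105 probe sets were higher. The symbol is carried by 115 probe sets, where the next member has 38, and 3 further probe sets carry it together with Hps1. Of the 115, 30 were at 12 or above in KO cells, with medians of 12.1 there and 11.8 in heterozygous cells and a difference of 0.31 (SD 0.11). Another 19 lay from 9 to 9.6 in KO cells and from 6.83 to 7.86 in heterozygous cells, with a difference of 1.71 (SD 0.23). These limits were chosen after the values were seen, and those of the 19 fix in advance that they are higher in KO cells and bound their spread. The remaining 66 had a median of 0.48, with 55 higher. Whether probe sets with nearly the same pair of values measure the gene separately was not tested, and the Slc38a6 value is uncertain.

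Of the facilitative carriers of large neutral amino acids, Slc43a2 (LAT4) had the widest set of differences of any member, with an SD of 1.37 over 22 probe sets; the 3 genes of this family had a median of -0.05, which turned to 0.06 on centring. Its levels were 6.54 and 7.10 and its difference -0.58, with 17 probe sets lower. The lowest Slc43a2 probe sets stood at 4.49 against 8.28, 4.49 against 7.82, 6.01 against 8.96 and 5.83 against 8.75, while its brightest hardly differed (11.9 against 12.1). Slc43a2 stayed between -0.83 and -0.47 over the alternatives, not all of which can change it. Slc43a1 (LAT3) differed by 0.20 (6.89 against 6.75) and Slc43a3, which carries purine bases, by -0.05 (7.28 against 7.03).

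**Figure D3:**
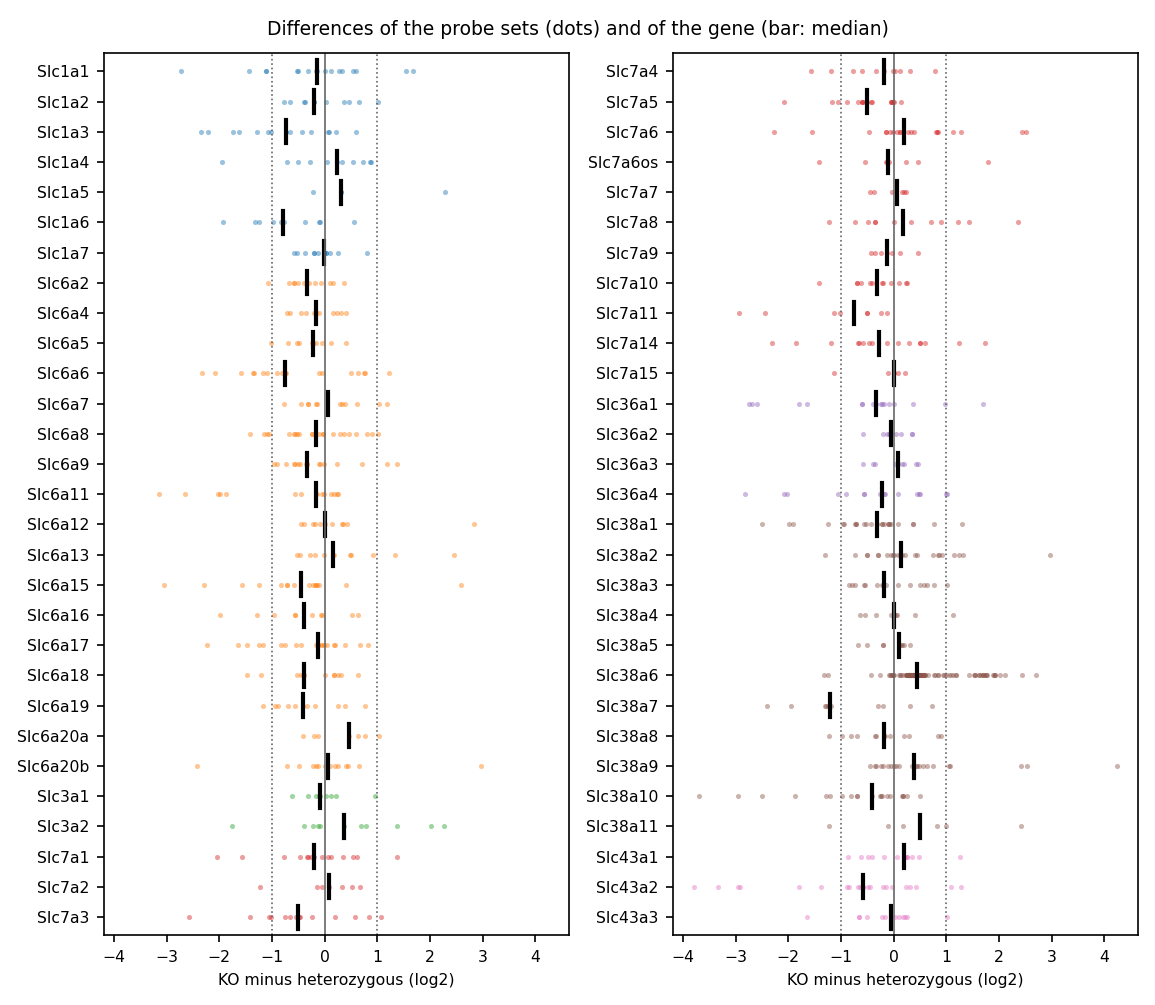
KO minus heterozygous difference (x axis, log2) of each probe set at or above the floor (dots, coloured by family) and of each of the 58 genes (black bar, median over its probe sets), with dotted lines at 2-fold. Nearly all bars lie between -0.76 and 0.50 while dots of single probe sets reach from -3.79 in Slc43a2 to 4.24 in Slc38a9, and the bars past these are Slc1a6 and Slc38a7.

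Counted by probe set, 111 of the 855 used for the 58 genes were at least 2-fold lower (13.0%, against 11.0% of all 215976 probe sets with 1 symbol at or above the floor), and 77 were at least 2-fold higher (9.01%, against 9.24%). Probe sets of 1 gene share its transcripts and are not independent. In 20 members 2-fold probe sets were present in both directions, among them Slc1a1, Slc6a6, Slc3a2, Slc7a3 and Slc38a2. In 8 members no probe set differed by 2-fold, which were Slc1a7, Slc3a1, Slc6a4, Slc7a7, Slc7a9, Slc36a2, Slc36a3 and Slc38a5. The matching shares of all evaluated genes were not counted, so both counts of members are no result about the set.

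Genes that handle the same molecules were listed for comparison. Of 6 evaluated vesicular transmitter carriers 5 were below 0, with a median of -0.20, and 1 passed the 2-fold rule: Slc17a6, which loads glutamate into vesicles, at -4.29 (5.40 against 9.11, SD 2.32, 9 of 11 probe sets lower; -1.15 with no floor). Slc32a1, which loads GABA and glycine, differed by -0.40 (7.97 against 8.17, 6 of 8 lower). Enzymes of glutamate and GABA metabolism had a median of -0.20 over 8 genes, with none past the rule. The aspartate aminotransferase gene Got2 was lowest at -0.64 with 17 of 18 probe sets lower, and glutamine synthetase, Glul, highest at 0.18. The GABA enzymes Gad1 and Gad2 stood at -0.15 and 0.14.

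The 16 genes listed for the amino acid response through ATF4, with Atf4 itself and Eif2ak4 among them, had a median of -0.11, as had all genes. Of them 12 were below 0 and none passed the rule, and the median turned to 0.02 with the trend on level removed. Psat1, an enzyme of serine synthesis, was lowest at -0.99 (6.87 against 8.34) with 15 of 16 probe sets lower, and the stress gene Ddit4 highest at 0.54 on 3 probe sets. Atf4 itself stood at -0.02 (9.57 against 9.55) and Asns, asparagine synthetase, at -0.08. Of 20 evaluated genes of lysosomal amino acid sensing by mTORC1, 12 were below 0, with a median of -0.07 (0.04 on centring) and none past the rule. The leucine sensor family gene Sesn1 was lowest at -0.70 and the Ragulator subunit gene Lamtor4 highest at 0.57.

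**Figure D4:**
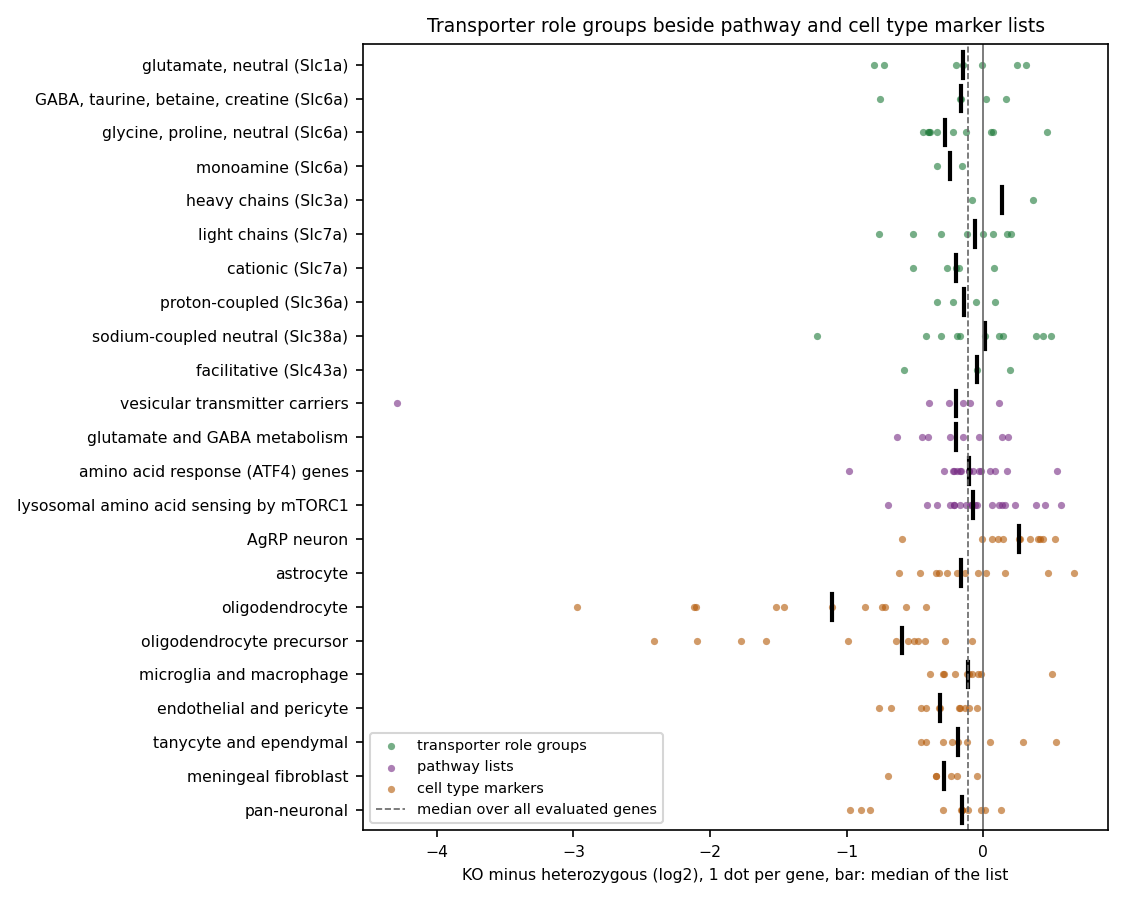
KO minus heterozygous difference (x axis, log2) of each gene (dots) in the transporter role groups, the pathway lists and the cell type marker lists, with the median of each list as a black bar and the median of all evaluated genes, -0.11, as a dashed line. The medians of the transporter role groups lie from -0.28 to 0.14, while that of the oligodendrocyte markers is at -1.11.

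Several members are known from cells other than neurons, so the other marker lists were set beside them. All 11 evaluated endothelial and pericyte markers were below 0, with a median of -0.32 from Cdh5 at -0.77 to Pecam1 at -0.05. All 6 evaluated meningeal fibroblast markers were below 0, with a median of -0.29 from Dcn at -0.70 to Aldh1a2 at -0.05. The microglia and macrophage markers had a median of -0.12 over 10 genes (0.0056 with that trend removed), and tanycyte and ependymal markers -0.19 over 9. Pan-neuronal genes had a median of -0.16 over 11, from Syt1 at -0.97 to Elavl4 at 0.13. What part other cells had in the values of the transporter genes was not tested.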

How the data were processed

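Per the submitters' processing notes, the deposited values were made by the authors with RMA (background correction, quantile normalisation and summary of a probe set's probes) and Partek, with no versions. The deposited table holds 1 log2 value per probe set and array, the base being taken from its values, which have a median of 5.85 on both arrays. The genome build is not stated in the labels or in the table. As RMA is usually run, its quantile normalisation gives both arrays 1 distribution of values, which would hide a change in total RNA. The deposited probe set values do not share 1 distribution exactly, with maxima of 14.11 (KO) and 14.13 (heterozygous). Repeating quantile normalisation moved the median difference of all evaluated genes from -0.11 to -0.03. It moved that of the members from -0.15 to -0.07. Why the deposited distributions differ was not tested. Total RNA was extracted with Trizol and labelled by a Nugen protocol, per the labels' protocols.

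Of 1235936 probe sets 318760 carried 1 symbol, and these gave 16639 evaluated genes with a median of 10 probe sets (12 for the members). The call was a difference of at least 1 in log2 with at least 75% of probe sets in that direction. The calling step was tested on simulated data, with the same difference added to all probe sets of a gene. That says nothing on error between mice. All 61 members are named. Of the pathway lists, members past the rule or else the highest and lowest are named. So are the highest and lowest astrocyte, endothelial and pericyte, meningeal fibroblast and pan-neuronal markers. No gene of the other marker lists is named with its value, and among these 6 oligodendrocyte and 4 precursor markers were lower by the rule. Gad1, Gad2, Atf4, Asns and Slc32a1 were chosen after their values were seen. List genes absent under their symbol were taken under 1 older symbol of the RefSeq table (GRCm38.p6, used for names). The members and lists were chosen with earlier results of these data known. Tools were Python 3.11.15, numpy 2.4.6, pandas 2.3.3 and matplotlib 3.10.9.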

Additional observations from a re-analysis of the deposited data

How the results depend on the processing

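The counts and the median were recomputed without a floor and with one at the 75th percentile, by the mean in place of the median over probe sets, for genes with 1 or more and with 5 or more probe sets, after removing the trend on level, repeating quantile normalisation or centring on the median gene, and with probe sets of several symbols. The number of members at least 2-fold higher was 0 in each of these, with 1.5-fold in place of 2-fold and with no rule on agreement. The number at least 2-fold lower was 1 except with no floor, where it was 0, and at 1.5-fold, where it was 3. With the mean over probe sets the 1 gene was Slc7a11 (-1.11) and not Slc38a7 (-0.88). The median of the members ran from -0.15 to -0.04, the latter on centring. Of the 58 members, 37 kept 1 sign over the alternatives in which they could be evaluated, 27 below 0 and 10 above: 31 in all 9, and Slc1a5, Slc6a2, Slc6a18, Slc6a19, Slc7a8 and Slc7a11 in 8, having too few probe sets for the other. The 21 that did not, whose direction is not to be read, were Slc1a2, Slc1a4, Slc1a7, Slc3a1, Slc6a7, Slc6a8, Slc6a9, Slc6a13, Slc6a20a, Slc7a2, Slc7a6os, Slc7a7, Slc7a9, Slc7a15, Slc36a2, Slc36a3, Slc38a3, Slc38a4, Slc38a5, Slc43a1 and Slc43a3. Not all 9 alternatives could turn a sign. Changing the number of probe sets a gene needs leaves its value as it was. Adding probe sets of several symbols changed only Slc38a6, from 0.437 to 0.442. Centring can turn only differences that lie up to 0.11 below 0. The share of all evaluated genes that kept 1 sign was not counted, so these counts of signs are no result about the set. Leaving out Slc38a6 or Slc7a6os, chosen after seeing the data, left the counts at 0 and 1 and the median at -0.15. The cause of these changes was not tested. No paired analysis was possible because each genotype has 1 array. The number of arrays limits the precision.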
